A study of Mus musculus with 14 samples.

Results

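The 39 *Hox* genes of the mouse, defined as all genes of the deposited table whose symbol is Hox followed by a cluster letter and a number, were followed through 14 embryonic stem (ES) cell lines; the table holds 23298 genes in all. They lie in 4 clusters, *HoxA* with 11 genes, *HoxB* with 10, and *HoxC* and *HoxD* with 9 each. In mm9 (NCBIM37) coordinates *HoxA* lies on chromosome 6, and *HoxB* spans 96055630 to 96229570 of chromosome 11, *HoxC* 102751534 to 102867274 of chromosome 15 and *HoxD* 74506367 to 74603200 of chromosome 2.
*Hox* genes encode homeodomain transcription factors that give cells of the embryo their position along the head to tail axis and along the limb. Within a cluster their order on the chromosome follows the order in which they are used: genes with low numbers act early and toward the head (anterior), and genes with high numbers act later and toward the tail and the distal limb (posterior). Undifferentiated ES cells hold the clusters mostly silent, whereas fibroblasts keep the *Hox* genes of the body region from which they came. For the text below, numbers 1 to 3 are called anterior (8 genes), 4 to 8 central (15 genes) and 9 to 13 posterior (16 genes).
All lines came from single F1 blastocysts of reciprocal crosses between C57BL/6J (B) and CAST/EiJ (C) mice, with the maternal strain named first, so that each line is an independent derivation from its own embryo. There were 3 BC XX, 3 BC XY, 2 BC XO (39,X), 3 CB XX and 3 CB XY lines, all grown in serum with leukemia inhibitory factor on mouse embryonic fibroblasts and all passed through 2 rounds of fibroblast depletion before RNA was isolated. Stranded total RNA was sequenced, and the values used here are read signals per gene that the authors scaled to a common depth. The CB XX lines are numbered by their columns.
An estimated 11904420 (CB XY 2) to 69646327 reads (BC XX 2) lie behind the lines, so that 1 read is worth a value of 0.407 to 2.46 and values up to 3 reads (1.22 to 7.37) cannot be told from 0. *Pou5f1*, the defining ES cell factor, had values of 10830 to 29386 in all 14 lines. *Uty*, a Y-linked gene, had values of 945 to 2088 in the BC XY lines and 1149 in CB XY 1, but 19.6 in the line labelled CB XY 2 and 45.4 in the line labelled CB XY 3, within the range of the XX and XO lines (12.8 to 195). Results that rest on them are given with and without these 2 XY-labelled lines low in *Uty*. *Col1a1*, the collagen chain that marks fibroblasts, had values of 6804, 10132 and 8551 in the BC XX lines and of 376 to 2390 in the other 11 lines, and it is set beside the *Hox* values throughout.

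The *Hox* RNA of these lines was low and uneven. Only 3 genes, *Hoxc13* and *Hoxd13* among them, had a value of at least 10 in all 14 lines, 6 genes exceeded 3 reads in every line, and *Hoxc11* exceeded 3 reads in none. Per kb of exon, the highest mean levels over the 14 lines were those of *Hoxd13* (66.2), *Hoxb9* (38.2), *Hoxc13* (29.4), *Hoxa5* (19.1) and *Hoxc8* (18.4). The lowest were those of *Hoxd3* (0.376), *Hoxc11* (0.455) and *Hoxb5* (0.962).

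To show the start regions of genes from the groups compared below, the 250 bases before the RefSeq gene start (GRCm38.p6) are given for *Hoxa5* (chr6:52204588-52204837, minus strand), *Hoxb4* (chr11:96318017-96318266, plus strand) and *Hoxd13* (chr2:74667975-74668224, plus strand). The first pair was higher in BC XX than in BC XY lines and *Hoxd13* was the most abundant member; capitals mark CG dinucleotides, the site of DNA methylation.
Hoxa5: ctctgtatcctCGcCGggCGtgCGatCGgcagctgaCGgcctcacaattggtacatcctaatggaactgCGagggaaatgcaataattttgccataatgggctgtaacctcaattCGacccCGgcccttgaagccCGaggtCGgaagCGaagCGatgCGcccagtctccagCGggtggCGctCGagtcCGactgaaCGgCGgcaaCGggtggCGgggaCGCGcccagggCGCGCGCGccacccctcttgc
Hoxb4: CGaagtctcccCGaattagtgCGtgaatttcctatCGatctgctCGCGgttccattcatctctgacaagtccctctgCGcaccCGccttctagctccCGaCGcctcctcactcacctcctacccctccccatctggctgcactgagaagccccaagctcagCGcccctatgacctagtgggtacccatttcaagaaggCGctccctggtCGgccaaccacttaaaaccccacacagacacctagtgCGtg
Hoxd13: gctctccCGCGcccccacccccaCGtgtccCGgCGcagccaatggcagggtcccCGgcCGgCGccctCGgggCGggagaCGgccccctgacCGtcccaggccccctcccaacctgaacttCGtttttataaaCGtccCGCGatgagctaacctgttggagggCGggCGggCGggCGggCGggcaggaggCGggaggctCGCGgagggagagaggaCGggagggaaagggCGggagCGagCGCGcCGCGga
The 3 windows hold 28, 14 and 31 CG dinucleotides. A window was listed for 22 of the 39 *Hox* genes, 24 windows in all, and their median was 12.5 CG against 6 over 32851 windows of the same length in the genome. The 7 windows of genes called higher in BC XX than in BC XY lines had a median of 14 (6 to 28) and the other 17 had a median of 12 (2 to 35), so that the ranges overlapped. TATAAA, the sequence of a core promoter element, was searched at any place in the window, so that a match is not a located element. It was found on either strand in 4 of the 24 windows (16.7%, against 12.4% of all windows), those of *Hoxa10*, *Hoxb8*, *Hoxd4* and *Hoxd13*. The TGATNNAT motif that *Hox* proteins bind together with PBX cofactors was found in another set of 4 (16.7%, against 7.68%), those of *Hoxa2*, *Hoxb1*, *Hoxb8* and *Hoxd11*, with *Hoxb8* in both.

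**Figure D1:**
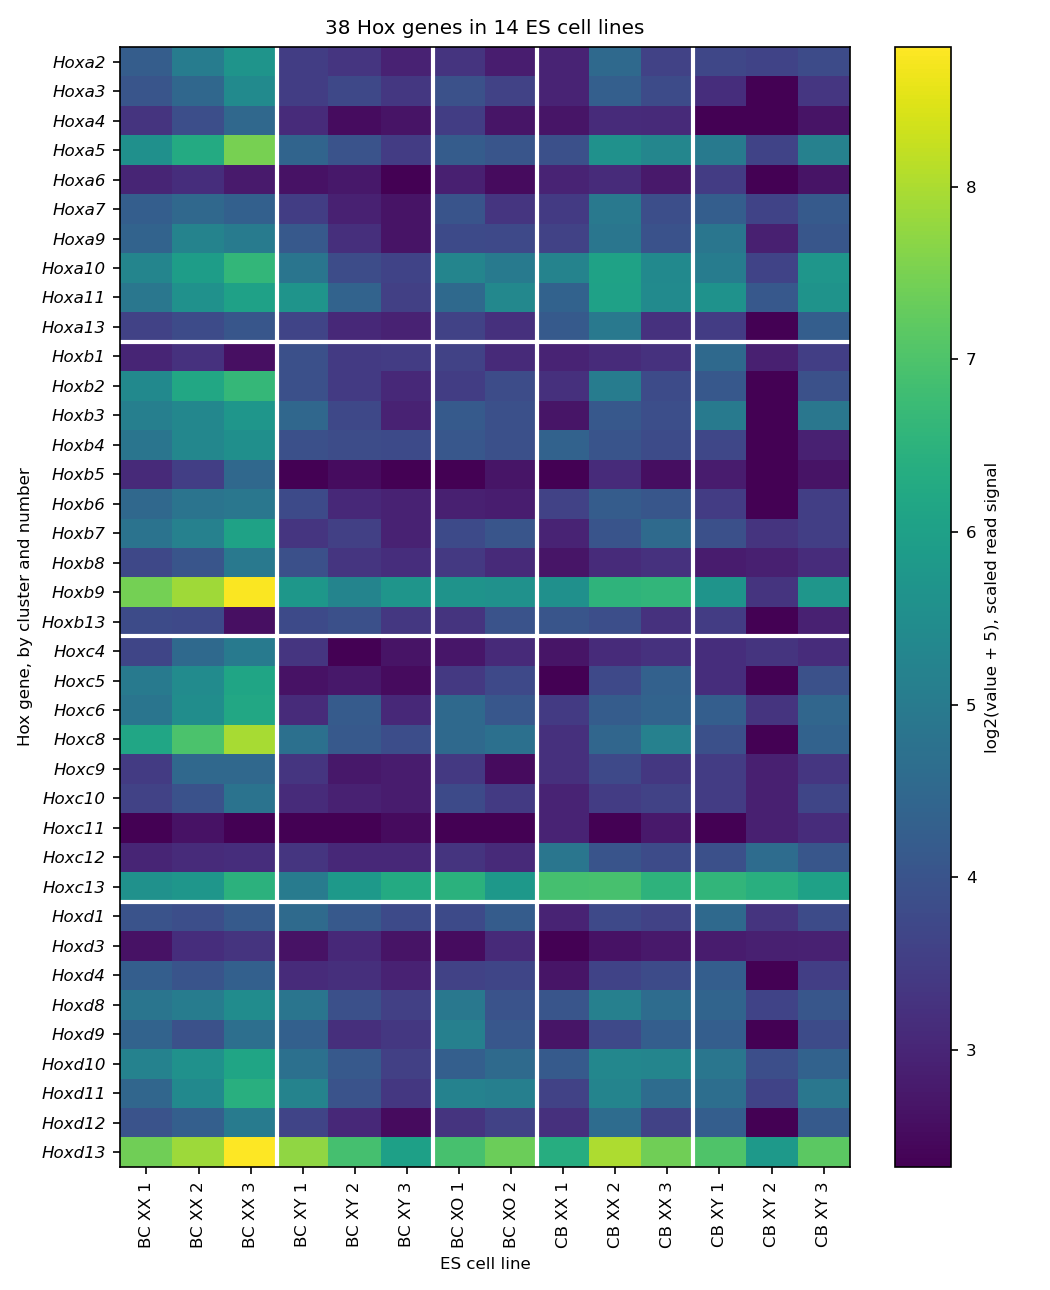
Each row is 1 of 38 *Hox* genes, ordered by cluster and number, and each column 1 of the 14 ES cell lines, with white lines between clusters and between groups. Colour gives log2(value + 5) of the scaled read signal: the BC XX columns are brightest in *HoxB* and in central *HoxC* genes, *Hoxd13* and *Hoxc13* are bright in every line, and the line labelled CB XY 2 is darkest.

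The sum of the 39 *Hox* genes per kb of exon was 385, 557 and 971 in the BC XX lines. It was 263, 167 and 138 in the BC XY lines and 241 and 228 in the BC XO lines. The CB XX lines had 204, 417 and 313, and the CB XY lines 287, 122 and 273. Of the 3 BC XX lines, 2 therefore lay above all others, and CB XX 2 exceeded BC XX 1. The highest value of the 14 lines was in a BC XX line for 28 of the 39 genes, and in BC XX 3 for 26. At the other end, 15 genes were listed at 0 in the line labelled CB XY 2, the shallowest of the 14.
The make-up of the sum differed as well. Central genes held 31.4% to 36.0% of it in the BC XX lines and 12.5% to 24.5% in the other 11 lines, with no overlap. Posterior genes held 53.9% to 55.9% and 63.4% to 77.1%, again without overlap, while the anterior share (10.1% to 12.7% and 8.97% to 18.8%) overlapped. With number 4 counted as anterior, the central share was 26.9% to 32.1% against 10.6% to 21.4%. By cluster, *HoxB* held 27.5% to 30.5% in BC XX lines and 4.19% to 22.3% elsewhere, whereas the shares of *HoxA* (20.4% to 22.2% and 17.2% to 29.6%), *HoxC* (19.98% to 23.0% and 12.6% to 48.8%) and *HoxD* (26.3% to 29.2% and 22.4% to 48.7%) overlapped. *Hoxd13* alone weighs on the *HoxD* and posterior sums, and *Hoxb9*, a posterior gene, on that of *HoxB*. These shares are descriptions, and no test was made of them.

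In the BC cross, XX lines were first compared with XY lines, the question being which *Hox* genes differ with the sex chromosomes. Of 33 *Hox* genes tested, 13 were higher in BC XX lines and none was lower at an FDR of 0.05 (limma, Benjamini-Hochberg over 16261 genes), where 4.46% of all genes were called higher, 1.24% lower and 5.7% in either direction. They were 8 of 12 central genes (*Hoxa5*, *Hoxb4*, *Hoxb6*, *Hoxb7*, *Hoxc4*, *Hoxc5*, *Hoxc6* and *Hoxc8*), 2 of 6 anterior genes (*Hoxa2* and *Hoxb2*) and 3 of 15 posterior genes (*Hoxa10*, *Hoxb9* and *Hoxd10*). By cluster they were 5 of 8 in *HoxB*, 4 of 8 in *HoxC*, 3 of 9 in *HoxA* and 1 of 8 in *HoxD*. An unadjusted p under 0.05 (limma) was reached by 7 of 8 genes in *HoxB*, 6 of 8 in *HoxC*, 6 of 9 in *HoxA* and 6 of 8 in *HoxD*. By position these were 12 of 12 central, 4 of 6 anterior and 9 of 15 posterior genes. Over all genes it was 3749 of 16261. The calls alone therefore do not show that *HoxD* or posterior genes were unchanged. The median log2 difference was 1.34 over the 33 genes and -0.04 over all genes tested. Differences are on the scale of log2(value + 5), which understates the change of genes as low as these.
Not tested for low values were *Hoxa4*, *Hoxa6*, *Hoxb1*, *Hoxb5*, *Hoxc11* and *Hoxd3*. A further 6 genes entered the test only through BC XX lines (*Hoxa2*, *Hoxb8*, *Hoxc4*, *Hoxc9*, *Hoxc10* and *Hoxd4*), 2 of which were called, and 11 of the other 27 were called. With no filter all 39 genes were tested and 12 were called higher, against 2.74% of all genes.

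Central genes of *HoxC* and *HoxA* showed some of the widest gaps. *Hoxc8*, which acts in the thoracic skeleton and in motor neurons of the arm, had values of 66.1, 122 and 243 in the BC XX lines and of 21.2, 12.5 and 9.37 in the BC XY lines. It had 18.3 and 21.3 in the XO lines, 4.26, 17.1 and 31.1 in CB XX and 10.1, 0 and 15.6 in CB XY lines. Every BC XX line stood above the other 11. The log2 difference between BC XX and BC XY lines was 2.80 ± 0.58 (SE, adjusted p = 0.0143 with limma), which is 6.97-fold on the scale of value + 5. The mean values themselves were 143.5 and 14.36.
*Hoxa5*, which patterns the neck and upper thorax and the developing lung, had values of 42.8, 73.7 and 175 in the BC XX lines. The BC XY lines had 16.2, 10.8 and 6.02, the XO lines 13.6 and 11.4, CB XX lines 9.95, 43.9 and 34.7, and CB XY lines 26.3, 7.37 and 31.2. The BC XX lines did not overlap the BC XY or BC XO lines, but CB XX 2 lay just above BC XX 1. The log2 difference to BC XY lines was 2.51 ± 0.54 (adjusted p = 0.0175, limma).
The widest difference of all was that of *Hoxc5*, a central gene next to *Hoxc6*, at 2.89 ± 0.49 (adjusted p = 0.00589, limma), with values of 26.2 to 65.8 in BC XX lines and 0.669 to 1.66, under 3 reads, in BC XY lines. Its exons overlap those of the annotated transcript Gm20398 on the same strand, so that its value may hold reads of both. *Hoxc4*, the lowest numbered gene of its cluster and active in the neck, had 7.74, 18.3 and 26.5 in the BC XX lines, 5.00, 0 and 1.34 in BC XY, 1.60 and 3.56 in BC XO, 1.42, 3.66 and 4.44 in CB XX, and 4.04, 4.91 and 3.89 in CB XY lines. Every BC XX line was above the other 11. Its log2 difference was 1.63 ± 0.35 (adjusted p = 0.0166, limma).

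In *HoxB*, the posterior gene *Hoxb9*, active in the thorax, was the most abundant. It had values of 171, 231 and 433 in the BC XX lines, 48.7, 33.3 and 46.9 in BC XY, 45.5 and 43.4 in BC XO, 42.6, 88.9 and 91.5 in CB XX, and 46.4, 4.91 and 48.0 in CB XY lines. Every BC XX line exceeded all others, the BC XY and XO lines lay between 33.3 and 48.7, and the log2 difference between BC XX and BC XY lines was 2.47 ± 0.55 (adjusted p = 0.0187, limma).
*Hoxb2*, which acts in the hindbrain, had 37.5, 69.6 and 95.3 in BC XX lines, 9.99, 5.82 and 3.35 in BC XY, 6.38 and 9.25 in BC XO, 4.26, 28.03 and 8.89 in CB XX, and 12.1, 0 and 10.4 in CB XY lines. Again the BC XX lines stood apart from the rest, with a log2 difference of 2.63 ± 0.52 to BC XY lines (adjusted p = 0.012, limma). Its neighbour *Hoxb3* had 29.8, 35.4 and 48.1 in BC XX lines, 17.5, 8.31 and 2.68 in BC XY, 12.8 and 9.96 in BC XO, 1.42, 12.2 and 9.77 in CB XX, and 26.3, 0 and 24.7 in CB XY lines. The BC XX lines were above all others here too, but the difference of 1.67 ± 0.61 to BC XY lines did not pass (adjusted p = 0.124, limma).
*Hoxb1*, another hindbrain gene and the lowest numbered member, had 2.98, 4.48 and 0.982 in BC XX lines, 9.99, 5.82 and 6.02 in BC XY, 7.18 and 3.56 in BC XO, 2.84, 3.66 and 4.44 in CB XX, and 18.2, 2.46 and 6.49 in CB XY lines. It was not tested, and the BC XX lines lay below the BC XY lines. *Hoxb13*, the most posterior member, expressed in tail and prostate, had 8.93, 8.55 and 0.982 in BC XX lines, 8.74, 9.98 and 5.35 in BC XY, 4.79 and 10.7 in BC XO, 11.4, 9.75 and 4.44 in CB XX, and 6.06, 0 and 2.60 in CB XY lines. Its groups overlapped throughout (log2 difference of BC XX to BC XY lines -0.31 ± 0.39, adjusted p = 0.687, limma).

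Posterior genes of *HoxA*, *HoxC* and *HoxD* are the genes of the limb, the genital region and the tail. *Hoxd13*, the digit gene, had values of 163, 229 and 444 in BC XX lines, 209, 115 and 59.6 in BC XY, 116 and 159 in BC XO, 76.8, 251 and 164 in CB XX, and 125, 51.6 and 140 in CB XY lines. The BC XX and BC XY lines overlapped, with BC XY 1 above BC XX 1, and the log2 difference between BC XX and BC XY lines was 1.14 ± 0.52 (adjusted p = 0.208, limma). Its interval of 0.02 to 2.25 holds a difference as large as that of several called genes.
*Hoxa11*, which acts in the forearm and uterus, had 24.99, 43.6 and 60.9 in BC XX lines, 46.2, 15.8 and 6.69 in BC XY, 18.3 and 35.6 in BC XO, 15.6, 60.9 and 38.2 in CB XX, and 44.4, 12.3 and 45.4 in CB XY lines. *Hoxa13*, which acts with *Hoxd13* in the hand and foot, had 7.14, 8.96 and 11.8 in BC XX lines, 7.49, 3.33 and 2.68 in BC XY, 7.18 and 4.27 in BC XO, 12.8, 25.6 and 4.44 in CB XX, and 6.06, 0 and 14.3 in CB XY lines. All groups overlapped and neither gene passed (log2 differences of BC XX to BC XY lines 0.98 ± 0.58 and 0.61 ± 0.47, limma). *Hoxd10*, a gene of the lumbar spinal cord, had 31.5, 44.0 and 64.8 in BC XX and 21.2, 12.5 and 6.69 in BC XY lines, which did not overlap, and was the only member of *HoxD* that was called (1.51 ± 0.40, adjusted p = 0.0419, limma). It had 14.4 and 18.5 in the XO lines, 12.8, 35.3 and 33.8 in CB XX and 24.2, 9.82 and 15.6 in CB XY lines, and its exons overlap those of Gm20440 on the same strand.
*Hoxd8* had 23.8, 28.1 and 39.3 in BC XX lines, 23.7, 9.98 and 6.69 in BC XY, 25.5 and 10.7 in BC XO, 11.4, 30.5 and 19.5 in CB XX, and 16.2, 7.37 and 11.7 in CB XY lines, and its difference of 1.02 ± 0.40 between BC XX and BC XY lines did not pass (adjusted p = 0.147, limma). *Hoxd1*, the lowest numbered gene of *HoxD*, had 10.7, 9.77 and 12.8 in BC XX lines, 18.7, 12.5 and 8.70 in BC XY, 8.77 and 13.5 in BC XO, 2.84, 8.53 and 7.11 in CB XX, and 18.2, 4.91 and 9.09 in CB XY lines. The BC XX and BC XY lines overlapped. Its log2 difference of BC XX to BC XY lines was -0.15 ± 0.34 and did not pass (adjusted p = 0.83, limma).

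**Figure D2:**
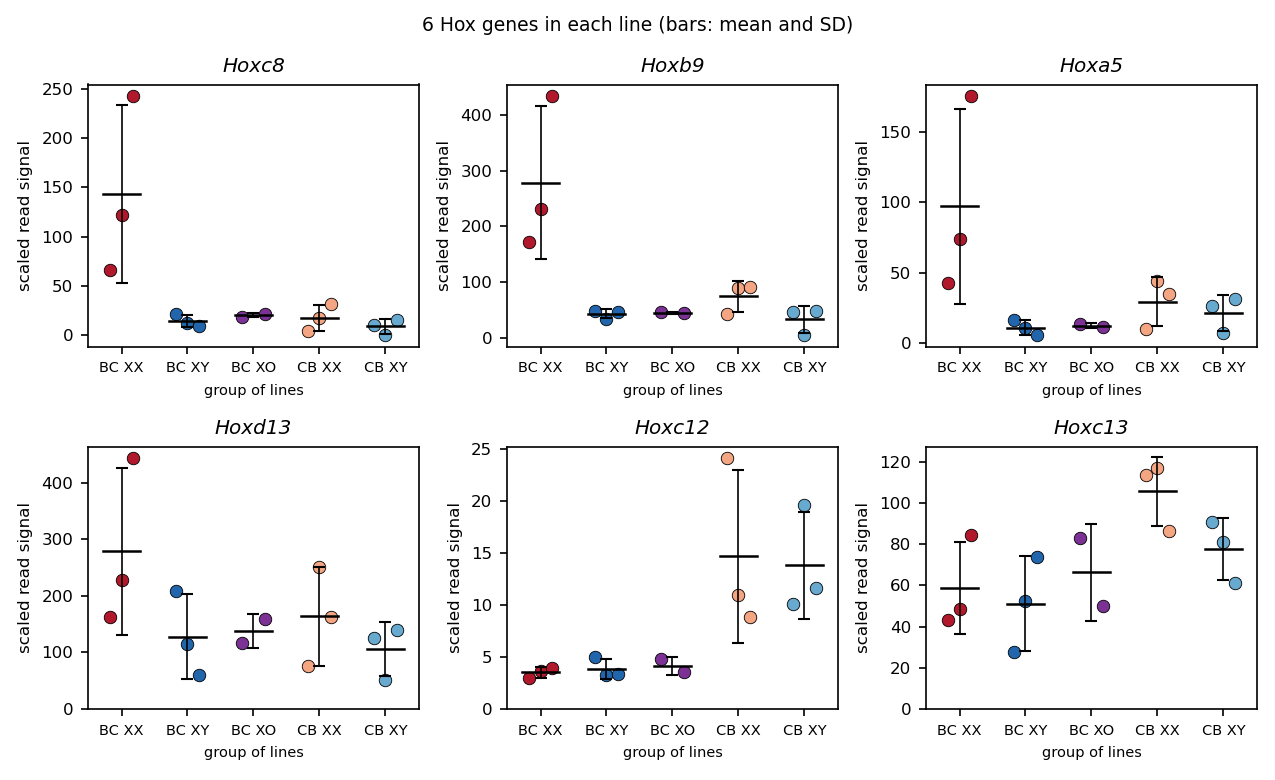
Points give the scaled read signal of *Hoxc8*, *Hoxb9*, *Hoxa5*, *Hoxd13*, *Hoxc12* and *Hoxc13* in each of the 14 lines, by group, with the mean and the SD as bars (3 lines a group, 2 for BC XO). The BC XX lines lie above the other 11 for *Hoxc8* and *Hoxb9*, the BC XX and BC XY lines overlap for *Hoxd13* and *Hoxc13*, and *Hoxc12* separates the 8 BC from the 6 CB lines.

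Counting lines rather than fitting them, 22 of the 33 *Hox* genes had every BC XX line above every BC XY line, against 14.6% of all genes tested, and none had every line below (12.5%). Of the 22, 5 entered the test only through BC XX lines and 17 were among the other 27 genes. Against all other 11 lines the BC XX lines stood above for 10 of the 33 (5.26% of all genes) and below for none (3.43%); 9 of the 10 were among those 27, the exception being *Hoxc4*. Those 10 were *Hoxb2*, *Hoxb3*, *Hoxb4*, *Hoxb6*, *Hoxb7* and *Hoxb9* of *HoxB* and *Hoxc4*, *Hoxc5*, *Hoxc6* and *Hoxc8* of *HoxC*, all 4 central members of the latter, and no gene of *HoxA* or *HoxD*.
The count of 13 calls rested on few lines: it was 1 without BC XX 3, 3 without BC XY 2, 4 without BC XX 2 and 4 without BC XY 3, and 11 to 16 without any of the others. *Hoxc5* was called in each of the 14 fits that left out 1 line, and the other 12 genes lost the call in 1 to 9 of them.

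Fibroblast genes moved the same way in the same lines. Of the 20 genes of the fibroblast list, 15 were higher in BC XX than in BC XY lines and none was lower (median log2 difference 2.27), and their summed value was 155200 to 335400 in BC XX and 52570 to 94250 in the other 11 lines, with none of the 20 at 0 in any group. *Fn1* weighs on this sum, with 65534 to 148162 in BC XX and 28224 to 71144 in the other 11 lines, which overlapped. *Col1a1* differed by 3.72 ± 0.50 (adjusted p = 0.00155, limma). In RNA from a whole culture, a larger share of cells of 1 type and more RNA per cell cannot be told apart. Of the genes that flank the clusters, 0 of 13 passed (limma, 1 at an unadjusted p under 0.05, median 0.03). *Skap1*, next to *HoxB*, was the one with the unadjusted p under 0.05, with values of 29.2, 24.0 and 36.3 in BC XX and 14.99, 11.6 and 24.1 in BC XY lines and a difference of 0.69 ± 0.29 (adjusted p = 0.172, limma). Among the *TALE* cofactors, with which *Hox* proteins bind DNA, *Meis2* was higher (1.39 ± 0.32) and *Pbx2* lower (-0.74 ± 0.19) and the other 7 of 9 did not pass.
No gene was called in the lists of mesoderm and axial progenitor factors (0 of 12, 3 at an unadjusted p under 0.05), retinoic acid pathway (0 of 11, 4 unadjusted), limb and body wall factors (0 of 11, 5 unadjusted), neural (0 of 9, 3 unadjusted), pluripotency (0 of 13, 2 unadjusted), cartilage and muscle (0 of 5, 1 unadjusted) and endothelial and blood genes (0 of 5, 1 unadjusted), all with limma. *Cdx1* and *Cdx2*, which activate *Hox* clusters in the embryo, had values of 15.1 to 25.6 and 68.8 to 151 in the BC XX lines, and of 36.6 to 116 and 100.6 to 307 in the BC XY lines. The groups overlapped for *Cdx2* but not for *Cdx1*. *Cdx4* of the same list went the other way and also overlapped, with 9.82 to 17.5 in the BC XX and 5.35 to 13.3 in the BC XY lines. Of the noncoding genes and *Evx1* and *Evx2* of the clusters only 3 of 17 were tested, and 0 passed (0 unadjusted). Of the 11 *Hox* genes that the study lists as higher in XX lines 10 were called between BC XX and BC XY lines, but that list was chosen on these lines and is not independent of them. The study compared all XX with all XY lines. In that comparison, made below, 9 of the 11 were tested, 0 passed and 9 had an unadjusted p under 0.05 (limma). *Hoxa2* and *Hoxb6* were too low to be tested there. The study made its calls with the Cufflinks suite and a stricter FDR. Test and threshold thus differ, and the 0 is not a repeat of the study's test.

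The XO lines carry a single X chromosome in the BC background and lack a Y chromosome. Against BC XO lines, 6 of 33 *Hox* genes were higher in BC XX lines and none was lower (limma), where 3.06% of all genes were called higher, 1.61% lower and 4.66% in either direction: *Hoxb6* (1.88 ± 0.39, adjusted p = 0.0227), *Hoxa2* (1.92), *Hoxb2* (2.42), *Hoxb9* (2.41), *Hoxa5* (2.33) and *Hoxc4* (1.49). *Hoxa2* and *Hoxc4* entered the test only through BC XX lines, and 4 of the other 27 genes were called; with no filter 2 of 39 were called higher, against 1.41% of all genes. The BC XX and BC XO lines shared no values in 23 of the 33 genes, BC XX lines being above each time, 18 of them among those 27 (23.6% of all genes; 23.5% had every BC XX line below). The count fell to 0 without BC XX 2, BC XX 3, BC XO 1 or BC XO 2, and to 1 without BC XY 2, which enters through the shared spread. Between BC XO and BC XY lines 0 of 33 passed, and 0 had an unadjusted p under 0.05 (limma, 0.00615% of all genes called in either direction). Every XO line was above every BC XY line for *Hoxa10*, *Hoxb7*, *Hoxc5*, *Hoxc10* and *Hoxd4*, 5 of 33 genes (9.01% of all genes), and below for *Hoxb6* (8.58%). Both comparisons share the XO lines, and *Col1a1* was 1266 and 1337 in these against 376 to 984 in BC XY lines.

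In the CB cross, 0 of 33 *Hox* genes differed between XX and XY lines, with 3 at an unadjusted p under 0.05, all in *HoxB* (limma, 3.57% of all genes called in either direction, 2.11% higher and 1.46% lower). Of all 16261 genes, 3032 had an unadjusted p under 0.05. The 3 *Hox* genes were *Hoxb4* (1.07 ± 0.33, adjusted p = 0.0995), *Hoxb6* (0.85 ± 0.35, adjusted p = 0.207) and *Hoxb9* (1.33 ± 0.55, adjusted p = 0.206), chosen after their values were seen. *Hoxb4* and *Hoxb6* were also the genes in which every CB XX line lay above every CB XY line, 2 of 33 against 11.7% of all genes, and none lay below (11.5%). The median log2 difference was 0.23, and -0.02 without the 2 XY-labelled lines low in *Uty*, which leaves CB XY 1 alone, taken to vary like the other groups. The count stayed at 0. *Col1a1* did not separate these groups, with 870, 1823 and 1449 in CB XX and 2092, 476 and 2390 in CB XY lines, and 0 of the 20 fibroblast genes were called (limma, 1 at an unadjusted p under 0.05). Mesoderm and axial progenitor factors did differ there, with 5 of 12 lower in CB XX lines, and their part in the *Hox* values was not tested.
Whether the difference of XX to XY lines itself differed between crosses was tested by an interaction term. It passed for 0 of 33 *Hox* genes, with 11 at an unadjusted p under 0.05 (limma, 0.0738% of all genes called, 0.0553% with a positive and 0.0184% with a negative term), and the median of the term was 1.08. Among all 16261 genes, 1471 had an unadjusted p under 0.05. *Hoxc5* (2.57 ± 0.70, adjusted p = 0.246) and *Hoxc4* (1.83 ± 0.50, adjusted p = 0.246) came closest, so that a different *Hox* response of the 2 crosses was not shown. Without the 2 XY-labelled lines low in *Uty* the median was 1.39 and the count again 0.

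**Figure D3:**
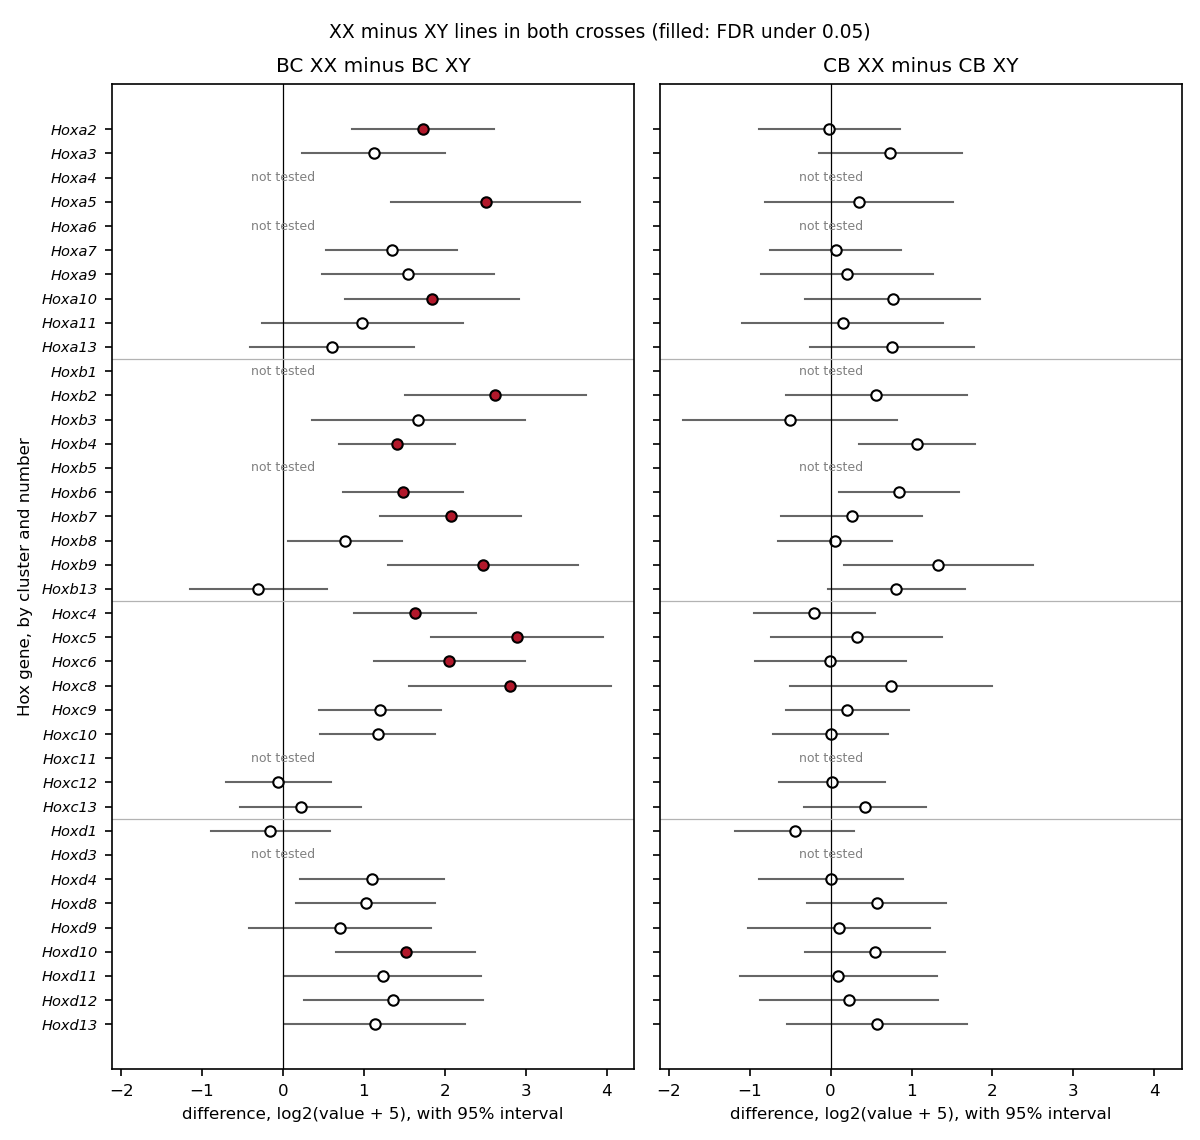
Points are log2 differences of XX minus XY lines on the scale of log2(value + 5) for 38 *Hox* genes, with 95% intervals, for the BC cross (left) and the CB cross (right); filled points passed an FDR of 0.05 in limma and 6 genes were not tested. In the BC cross 13 points are filled, from 1.41 for *Hoxb4* to 2.89 for *Hoxc5*, and in the CB cross none is.

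Over both crosses, the 6 XX lines were compared with the 6 lines labelled XY. Only 19 *Hox* genes had values of 10 or more in at least 6 of these lines. Of the 19, 0 passed and 12 had an unadjusted p under 0.05 (limma, 5.21% of 15311 genes called, 3.21% higher and 1.99% lower), the median log2 difference being 0.86. An unadjusted p under 0.05 was reached by 3544 of the 15311 genes. *Hoxb9* came closest (1.90 ± 0.53, adjusted p = 0.0528 with limma), followed by *Hoxa10* (1.30 ± 0.38, adjusted p = 0.0655). With the cross as a covariate 5 were called, and without CB XX 1 alone, the CB XX line with the lowest *Hox* sum, 9 were called; it was 1 without CB XY 3 as labelled. Without the 2 XY-labelled lines low in *Uty* the count was 0 and the median 0.80. No *Hox* gene had all 6 XX lines above all 6 XY lines (2.29% of all genes) or below them (1.23%).

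The XX lines of the reciprocal crosses carry the same strains with the parents exchanged. BC XX lines had more RNA than CB XX lines of 7 *Hox* genes and less of 1, of 33 tested, where 4.25% and 2.9% of all genes were called in these directions and 7.15% in either (limma). The 7 were *Hoxc8* (2.75 ± 0.58, adjusted p = 0.0178), *Hoxb2* (2.08), *Hoxc5* (2.05), *Hoxc4* (1.39), *Hoxb8* (1.22), *Hoxb7* and *Hoxb4*, with 4 from *HoxB* and 3 from *HoxC*. *Hoxc4* and *Hoxb8* entered the test only through BC XX lines, and 5 of the other 27 genes were called higher; with no filter 4 of 39 were, against 1.99% of all genes. In *HoxA* 0 of 9 were called (3 at an unadjusted p under 0.05) and in *HoxD* 0 of 8 (0 unadjusted). *Hoxb7* and *Hoxb8* share exon sequence on the same strand in the annotation, so that their values are not independent. In all comparisons the same holds for *Hoxa2* with *Hoxa3* and for *Hoxd3* with *Hoxd4*. Exons of *Hoxc10* also overlap Gm20398, and those of *Hoxd11* overlap Gm20440, on the same strand. The total of 8 fell to 0 without BC XX 2, BC XX 3 or CB XX 1 and to 3 or 4 without CB XX 2, BC XY 2, BC XO 1, BC XO 2 or CB XY 3, and was 6 without the 2 XY-labelled lines low in *Uty*. Of the 20 fibroblast genes, 11 were higher in BC XX than in CB XX lines, *Col1a1* by 2.66 ± 0.50.
The exception was *Hoxc12*, at the posterior end of *HoxC*. It had values of 2.98, 3.66 and 3.93 in BC XX, 5.00, 3.33 and 3.35 in BC XY and 4.79 and 3.56 in BC XO lines, but 24.2, 10.97 and 8.89 in CB XX and 10.1, 19.6 and 11.7 in CB XY lines. All 8 BC lines lay below all 6 CB lines, the only such case among the 33 genes (0.59% of all genes). The log2 difference of BC XX to CB XX lines was -1.13 ± 0.30 (adjusted p = 0.0411, limma). It passed in 4 of 6 alternatives of processing and lines, and did not pass with the 2 XY-labelled lines low in *Uty* left out. With 1 line left out the adjusted p was 0.0158 to 0.201 (limma), and the call held in only 5 of 14 such fits. The call was lost without BC XX 1, BC XX 2, BC XX 3, BC XY 2, BC XO 1, BC XO 2, CB XX 1, CB XX 2 or CB XY 3 as labelled. The BC values were all above 3 reads but low.
Its neighbour *Hoxc13*, a gene of hair and nail, had 43.4, 48.4 and 84.5 in BC XX, 27.5, 52.4 and 73.6 in BC XY, 82.9 and 49.8 in BC XO, 114, 117 and 86.2 in CB XX, and 90.9, 81.0 and 61.0 in CB XY lines. All CB XX lines were above all BC XX lines, though the difference of -0.84 ± 0.35 did not pass (adjusted p = 0.147, limma), and the wider BC and CB sets overlapped. Every line of BC XX was below every CB XX line for these 2 of the 33 genes (12.6% of all genes) and above for 14, of which 10 were among the 27 that did not enter only through BC XX lines (14.2%).

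Because fibroblast RNA differed between lines, each *Hox* gene was also set against *Col1a1* over the 14 lines, as the slope of log2(*Hox* value + 5) on log2(*Col1a1* value + 5). The slope was positive and passed for 25 of 33 *Hox* genes and was negative and passed for none (limma), where 6.23% of all genes had a positive and 2.54% a negative slope that passed, 8.77% in all. The median slope was 0.41 over the *Hox* genes and -0.01 over all genes. Of the 6 genes that entered the test only through BC XX lines, which are highest in *Col1a1*, all but *Hoxb8* passed. With no filter the slope passed for 26 of 39 against 4.53% of all genes. The count was 15 without BC XX 3, 18 to 26 without any other line, and 21 without the 2 XY-labelled lines low in *Uty*.
The steepest slopes were those of *Hoxc8* (0.87 ± 0.13, adjusted p = 0.000476), *Hoxb2* (0.78 ± 0.09, adjusted p = 5.64e-05), *Hoxb9* (0.76 ± 0.12), *Hoxc5* (0.76 ± 0.09) and *Hoxa5* (0.70 ± 0.09, adjusted p = 0.00018, all limma). A slope of 1 would be strict proportion on a scale without the added 5, and the 95% interval reached 1 for *Hoxc8* (0.59 to 1.14) and *Hoxb9* (0.51 to 1.02). *Hoxd13* had a slope of 0.42 ± 0.09 (adjusted p = 0.00969, limma), although it was not called between the groups of the BC cross.
The genes whose slope did not pass included the highest numbered *Hoxa13* (0.22 ± 0.10), *Hoxb13* (0.00 ± 0.10) and *Hoxc13* (-0.06 ± 0.10), the lowest numbered *Hoxd1* (0.08 ± 0.08), and *Hoxc12* (-0.14 ± 0.11), *Hoxb8* (0.27) and *Hoxd9* (0.29). By position 11 of 12 central, 10 of 15 posterior and 4 of 6 anterior genes passed, and by cluster 7 of 9 in *HoxA* and 6 of 8 in each of the others. These counts include *Hoxa2*, *Hoxc4*, *Hoxc9*, *Hoxc10* and *Hoxd4*, which entered the test only through BC XX lines. In *HoxC* the slopes were 0.40 to 0.87 in its 4 central genes, 0.33 and 0.30 in *Hoxc9* and *Hoxc10*, and under 0 in *Hoxc12* and *Hoxc13*. *HoxD* was flatter, at 0.29 to 0.44 from *Hoxd4* to *Hoxd13*. The added 5 flattens the slopes of low genes. Mean values over the 14 lines were 6.17 for *Hoxc4*, 6.31 for *Hoxc9* and 6.81 for *Hoxc10*, against 42.2 for *Hoxc8* and 72.3 for *Hoxc13*. Position and abundance were therefore not separated in these slopes.

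**Figure D4:**
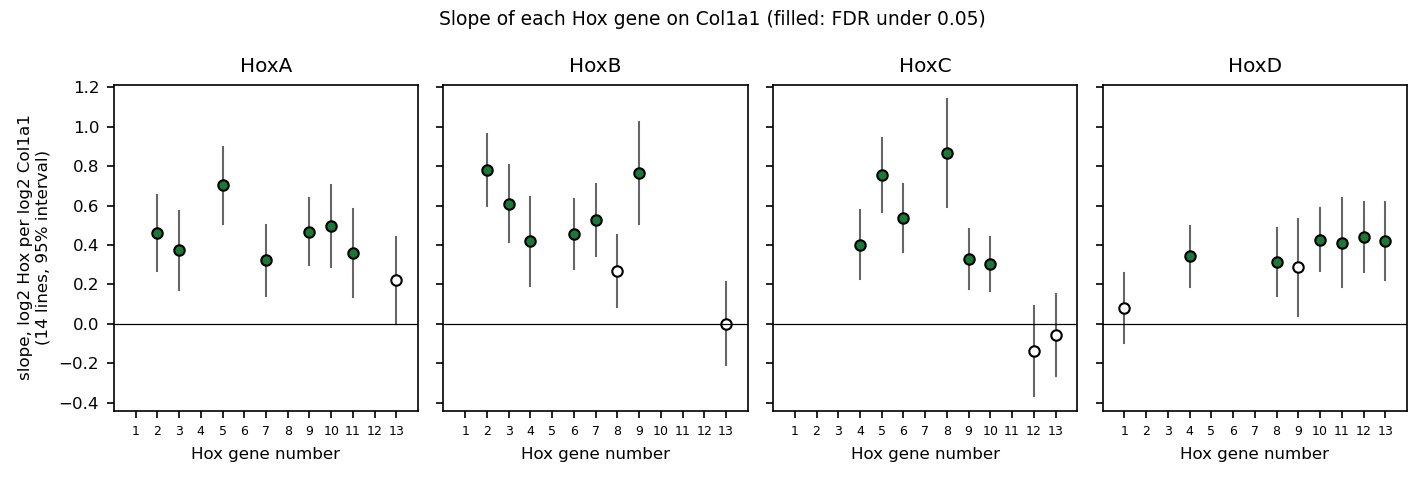
The slope of log2(*Hox* value + 5) on log2(*Col1a1* value + 5) over 14 lines is plotted against the gene number in each of the 4 clusters, with 95% intervals; filled points passed an FDR of 0.05 in limma. Central *HoxC* genes reach 0.87, *Hoxc12* and *Hoxc13* lie at -0.14 and -0.06, and *HoxD* genes from number 4 on lie between 0.29 and 0.44.

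Of other lists, 16 of 19 fibroblast genes had a positive slope that passed (median 0.65), as did 6 of 11 limb and body wall factors, with *Tbx15*, a factor of the body wall and limb mesenchyme, the steepest of these (0.60 ± 0.10, adjusted p = 0.00097, limma). *Meis2* of the *TALE* cofactors had a slope of 0.41 and *Hoxa11as*, read from the strand opposite *Hoxa11*, one of 0.35, and both passed. None of the 13 flanking genes passed (0 with limma, 2 at an unadjusted p under 0.05), nor did any of 12 mesoderm and axial progenitor (0 unadjusted), 11 retinoic acid pathway (3 unadjusted), 5 cartilage and muscle (1 unadjusted) or 5 endothelial and blood genes (0 unadjusted). *Nes* and *Zic1* of 9 neural genes had positive slopes that passed and *Esrrb* of 13 pluripotency genes a negative one.
The BC XX lines lie at the upper end of *Col1a1*, so that the slope over 14 lines also carries the difference between groups. Within groups, with the group in the model, the slope passed for 7 of 33 *Hox* genes (1.25% of all genes positive and called, 1.35% in either direction, limma) and the median was 0.53. These were *Hoxb3* (1.15 ± 0.14, adjusted p = 0.00364), *Hoxa11* (0.97), *Hoxd12* (0.88), *Hoxb2* (0.85), *Hoxd13* (0.83), *Hoxa9* (0.82) and *Hoxa10* (0.81), 5 of them posterior and none central. At an unadjusted p under 0.05 were 8 of 12 central, 10 of 15 posterior and 4 of 6 anterior genes, so that no difference between positions is read from the calls. Over all genes it was 2362 of 16260. Of the 5 *Hox* genes of steepest slope over 14 lines, 3 had slopes within groups of 0.88 ± 0.22 for *Hoxc8* (adjusted p = 0.0681), 0.85 ± 0.20 for *Hoxb9* (adjusted p = 0.0525) and 0.80 ± 0.21 for *Hoxa5* (adjusted p = 0.082, all limma), but did not pass. *Hoxb2* passed, as given above, and *Hoxc5* had 0.62 ± 0.22 and did not pass (adjusted p = 0.19, limma). The count of 7 depends on single lines: it was 1 without BC XY 1, CB XX 1 or CB XY 2, 2 to 4 without BC XX 1, BC XX 2, BC XY 3, BC XO 1, BC XO 2, CB XX 2, CB XY 1 or CB XY 3, and 11 without BC XX 3. Without the 2 XY-labelled lines low in *Uty* it was 0, and with the mean of the fibroblast list in place of *Col1a1* it was 15.
At equal *Col1a1*, the difference between BC XX and BC XY lines passed for 0 of 33 *Hox* genes, with 7 at an unadjusted p under 0.05 (limma, 0.0308% of all genes called, 0.0246% lower), and the median moved from 1.34 to -0.53. Of all 16260 genes, 1494 had an unadjusted p under 0.05. For *Hoxc8* the log2 difference became -0.48 with a 95% interval of -2.43 to 1.46, for *Hoxb2* -0.53 (-2.13 to 1.06) and for *Hoxc5* 0.57 ± 0.90 (SE). All 7 *Hox* genes with an unadjusted p under 0.05 had values below 0, *Hoxa11* (-2.63 ± 0.78), *Hoxb3* (-2.62 ± 0.59), *Hoxa9*, *Hoxd1*, *Hoxd9*, *Hoxd12* and *Hoxd13*. By cluster the median was -0.66 in *HoxA*, -0.53 in *HoxB*, 0.42 in *HoxC* and -1.81 in *HoxD*, where all 8 genes lay between -1.98 and -0.47. The intervals are wide and no BC XX line overlaps the others in *Col1a1*, so that the group and the fibroblast RNA cannot be told apart well in these lines. Per 1000 units of *Col1a1*, the sum of the 39 *Hox* genes was 56.6, 54.9 and 113.6 in the BC XX lines and 114.3 to 367 in the other 11, all above the BC XX lines. For central genes alone the ratio was 17.8, 18.9 and 40.9 against 23.1 to 52.9, which overlapped, and for posterior genes 31.6, 29.6 and 61.2 against 74.8 to 245, which did not.

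**Figure D5:**
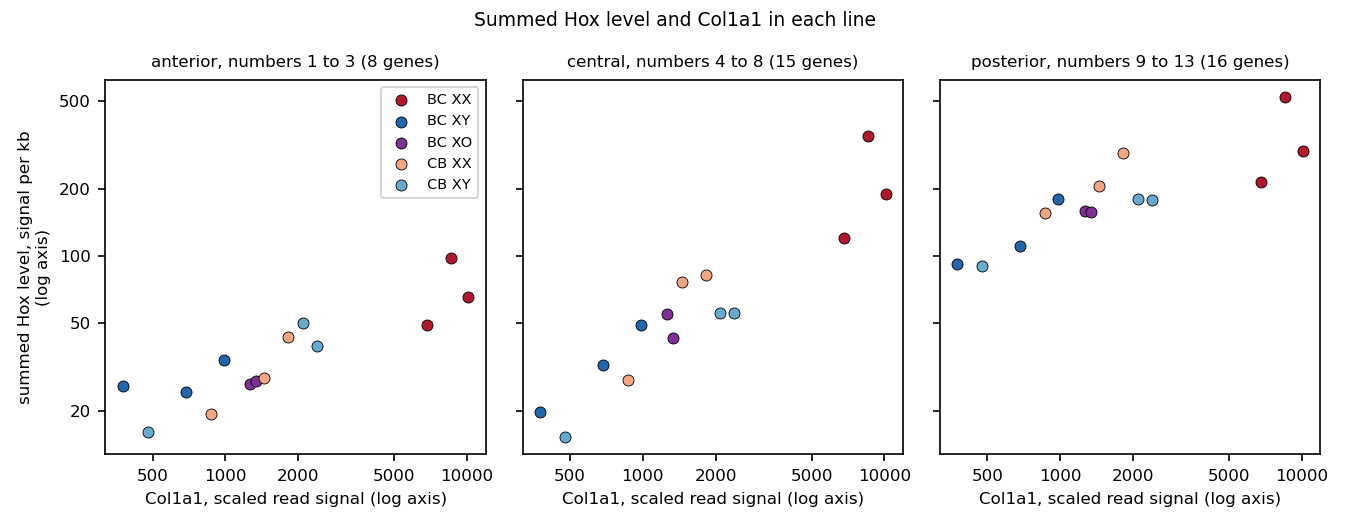
The summed level per kb of anterior, central and posterior *Hox* genes (vertical, log axis) is plotted against *Col1a1* (horizontal, log axis) in each of the 14 lines, coloured by group. The 3 BC XX lines lie at 6804 to 10132 in *Col1a1*, where the central sum is 121 to 349 against 15.2 to 81.9 in the other lines, while the posterior sum of 215 to 524 overlaps the 90.4 to 292 of the others.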

How the data were processed

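Total RNA of 14 ES cell lines was read from stranded libraries. Per the methods, the authors aligned the reads to mm9 with TopHat2 and used the Cufflinks suite; the annotation they counted over is not given in the sources used here. The deposited value per gene and line is a read signal that the authors scaled to a common depth. Among values of at most 20 reads, 98.7% to 99.2% are whole multiples of 1 step within 0.05 of a read, taken as 1 read. Intervals cover 95%.

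Values were used as log2(value + 5). Genes with a value of 10 or more in at least 2 lines (6 for XX against XY) were tested, and 15 genes listed at 0 in a whole group but at 100 or more elsewhere were left out. Linear models were fitted over all genes with limma 3.58.1 (trended, moderated) in R 4.3.3, with Benjamini-Hochberg adjustment and an FDR of 0.05: 5 groups in 1 model, XX against XY over 12 lines, and the slope on *Col1a1* with and without the group. Steps were tested on simulated data. Levels per kb use the union of exons in GENCODE vM1, and tables were joined with Python 3.11.15. In each cluster the 3 members of highest mean level per kb and the lowest and highest numbered are given in every line, and others by range and count or where they passed a test. The values of 1 of the 39 members are not reported here; counts and sums include it. The members and lists were chosen with earlier results of these data known. Library batches of 6 are not assigned to lines in the methods and were not modelled. Each line is a separate derivation. Alternatives changed the scaling, pseudocount, filter, covariate and lines.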

Additional observations from a re-analysis of the deposited data

Results flagged for a closer look

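In 66 checks, each of 1 *Hox* gene in the 6 XX or the 6 lines labelled XY, 2 had a line far from the others. Chance alone gives about 1 group in 20 where checks are independent, and 2 is no more than that. These checks share the same lines and are not independent, so that the rate is only a rough guide. In both flagged checks it was the line labelled CB XY 2 among the XY lines, on the log2(value + 5) scale. Its *Hoxb9* value of 4.91 (2 reads) left a gap of 0.799 of the whole range, and its *Hoxc8* value of 0 a gap of 0.637 of the range. This line has the lowest read number of the 14 and also the lowest *Hox* sum.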

How the results depend on the processing

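The count of 13 for BC XX against BC XY lines was 9 to 13 under other scalings, a pseudocount of 1, no filter, the replicate block and without the 2 XY-labelled lines low in *Uty*, and that of 25 for the slope on *Col1a1* was 21 to 26. For BC XX against BC XO lines 6 calls became 1 with a pseudocount of 1, 2 with no filter and 0 with the replicate block. For BC XX against CB XX lines 8 became 2 with a pseudocount of 1, 5 with no filter and 5 with the replicate block. For XX against XY 0 became 1 with quantile normalization, 1 with no filter and 5 with the cross as a covariate. The 7 slopes within groups became 2 with quantile normalization, 12 with a pseudocount of 1, 4 with no filter, 0 without the 2 XY-labelled lines low in *Uty*, 1 with the replicate block and 15 with the mean of the fibroblast list. The causes were not tested. With 1 line left out in turn the counts ranged from 1 to 16 (BC XX against BC XY), 0 to 9 (BC XX against BC XO), 0 to 11 (BC XX against CB XX), 0 to 9 (XX against XY), 15 to 26 (slope over 14 lines) and 1 to 11 (slope within groups), and stayed at 0 for the other comparisons; a lone XO line is assumed to vary like the other groups.

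Of 59 single calls, 310 of 386 alternatives and 607 of 826 fits without 1 line kept the direction and passed, and 0 were reversed. Same-numbered lines did not deviate together (correlations of -0.494 to 0.27 over 15 pairs, 4 of them over 0.1), so that the block pairs nothing but numbers; apart from the counts above it changed no count by over 1.5 times. A count test on recovered reads was not run, because the steps were not recovered for nearly all genes by the rule required for it. Few reads per *Hox* gene limit all calls.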
